A study of Homo sapiens with 12 samples.

Results

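The 37 genes described here carry out glycolysis or belong to the hypoxia response, and they were picked by gene name from the 60504 genes of the deposited tables. They comprise 2 glucose transporters, 15 enzymes on the route from glucose to pyruvate, 2 lactate dehydrogenases, 1 lactate exporter, 3 enzymes that control glycolysis or the entry of pyruvate into mitochondria, 8 cell-state targets of hypoxia-inducible factor and 6 genes of oxygen sensing and related dioxygenases. Glycolysis splits glucose into pyruvate in the cytosol and yields ATP without oxygen, and many cancer cells turn much of that pyruvate into lactate and export it. Hypoxia-inducible factor pairs an oxygen-labile alpha subunit with a stable partner, ARNT. Oxygen-dependent prolyl hydroxylases mark the alpha subunit for degradation, so that in low oxygen the pair accumulates and switches on glucose transporters, glycolytic enzymes and a set of stress genes.

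All 12 RNA-seq libraries came from cultured T24 cells, an established line of human bladder cancer, and the study altered U11, a small nuclear RNA of the minor spliceosome. For the knockout, 2 libraries with the label U11 knockout were set against 2 controls labelled untreated. The knockout was made with Cas9 and a pair of guide RNAs against U11, followed by the choice of single-cell clones. For the overexpression, 6 libraries carrying that label were set against 2 other controls labelled untreated. The overexpressing cells carried a pcDNA plasmid with U11 and were also single-cell selected, and their library names hold the line labels 79, 86 and 87 with 2 libraries each, whose meaning is not given in the sources used here. Neither the labels nor the methods say whether the libraries of a group came from separate cultures, so the P values measure the spread between libraries, which may be technical, and a clone and its treatment cannot be told apart.

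Levels are given in TPM (abundance of transcripts per length of gene, with every library brought to a common total). U11 itself was summed over overlapping entries of its gene, RNU11. It read 21.4 and 23.8 TPM in the controls of the knockout comparison, against 31.6 and 37.4 TPM under the knockout label. Of these entries, 1 was at 0 TPM in every library of that comparison. The same entry held 60.2 of the 61.9 TPM in library 87-1 of the overexpression comparison. Both libraries with the knockout label were above both controls in these tables, which goes against that label, and the exact permutation test on group means returned p = 0.333, the smallest that 2 against 2 libraries allow (two-sided). They are therefore called the libraries labelled U11 knockout throughout, and each direction given for them rests on the label. Among the overexpression libraries and their controls, U11 stood at 0.03 and 0.62 TPM in the untreated libraries, at 0.18 and 0.41 TPM under line label 79, at 3.98 and 3.72 TPM under 86, and at 61.9 and 53.6 TPM under 87. Line labels 86 and 87 were above the controls, whereas line label 79 lay within their range, and the exact permutation test (two-sided) of all 6 libraries against the controls gave p = 0.393, where 0.036 is the smallest possible.

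The libraries held between 9.07 and 15.33 gigabases of aligned sequence, as the ratio of coverage to FPKM in the tables gives it. The comparisons differed in the level of histone messages, and the cause was not tested. Histone genes, whose messages mostly lack a poly(A) tail, summed to between 27662 and 34279 TPM in the knockout comparison but to only 103.4 to 179.8 TPM among the overexpression libraries and their controls. The 37 genes together took 1.22 to 1.39% of all TPM in the former and 2.95 to 3.48% in the latter. Levels are therefore compared only within a comparison. As for the labelled cell type, the keratins KRT7, KRT8, KRT18 and KRT19 were at least 90.3 TPM in every library and the urothelial regulator PPARG at least 18.9 TPM. The defining uroplakins UPK1A, UPK1B, UPK2 and UPK3A were at most 0.44 TPM, and KRT5, KRT20 and the epithelial cadherin CDH1 at most 0.15 TPM. Among 8 markers of blood, vessel, stromal and liver cells, the sum in the knockout comparison was 5.83 and 5.94 TPM for the controls and 1.63 and 1.12 TPM under the knockout label. In the overexpression comparison it was between 5.02 and 8.61 TPM in 6 libraries and 35.6 TPM in both libraries of line label 79. Under line label 79 most of it was CDH5, the endothelial cadherin, at 34.1 and 32.2 TPM, while PECAM1, another defining endothelial gene, was at most 0.30 TPM in every library. The blood cell genes PTPRC, CD3E, CD79A and LYZ were each at most 1.68 TPM. The overexpression libraries and their controls came in the library series R17018 and R18019, named after the start of the library identifiers, each with 1 library of every line label and 1 control. LYZ was between 1.55 and 1.68 TPM and CD3E between 0.50 and 0.91 TPM in the 4 libraries of R18019, whereas in the 4 of R17018 LYZ was at 0 and CD3E at most 0.05 TPM.

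In the knockout comparison, 4 of the 37 genes were up-regulated (BHLHE40, SLC2A3, NDRG1 and HIF1A) and 1 was down-regulated (DDIT4). No enzyme of the glycolytic route from glucose to lactate was called, and several of the most abundant of them stood lower under the knockout label by less than the 1.5-fold threshold. A gene was called when it passed the study's thresholds (unadjusted P below 0.05, change of 1.5-fold or more) in a limma fit on log2(TPM + 1), a scale that understates the change of low genes. Of the 37 genes, 34 passed the filter of 1 TPM in at least 2 of the libraries compared, and CA9, CA12 and EGLN3 did not. The background was 8.61% up-regulated and 3.15% down-regulated among all 14356 genes tested. All 5 called genes also had an adjusted P (Benjamini-Hochberg, over all genes tested) under 0.05, where the background in either direction was 6.85%. With either of the libraries labelled U11 knockout (U1 or U2) left out none of the 5 had (adjusted P between 0.114 and 0.191 in limma), with a replicate block only BHLHE40 and DDIT4 had, and with no filter only DDIT4 had, while the unadjusted calls held in these fits. The median log2 fold change of the 34 genes was 0.01, against 0.11 for all genes tested. Median ratio scaling, which sets the typical gene to no change, moved the median of all genes to 0.01 and that of the 34 to -0.10, so scaled values are given beside the called genes.

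BHLHE40 encodes a basic helix-loop-helix repressor that hypoxia-inducible factor induces and that also takes part in the circadian clock. It stood at 16.0 and 17.5 TPM in the control libraries and at 55.7 and 47.2 TPM under the knockout label. The groups lay far apart, and the mean was 3.07-fold higher under the knockout label (16.8 ± 1.10 against 51.5 ± 6.0 TPM, SD, n = 2 each). The log2 fold change was 1.56 (standard error 0.13, limma adjusted P = 0.0108) and 1.45 after scaling. It was the largest rise among the 34 genes tested.

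DDIT4 (REDD1) encodes a stress protein that restrains the mTORC1 kinase in low oxygen, energy stress or after glucocorticoids. It stood at 37.7 and 38.5 TPM in the control libraries and at 11.4 and 10.7 TPM under the knockout label. The values within each group were close together and the groups did not overlap. The log2 fold change was -1.70 (standard error 0.10, limma adjusted P = 0.00644) and -1.81 after scaling. Thus the 2 largest changes among the 34 genes, both in targets of hypoxia-inducible factor, ran in opposite directions.

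SLC2A3 (GLUT3) is a high-affinity glucose transporter best known from neurons. It stood at 3.31 and 3.58 TPM in the control libraries and at 8.42 and 6.82 TPM under the knockout label, with a log2 fold change of 0.95 (standard error 0.15, limma adjusted P = 0.033, 0.86 after scaling). The groups did not overlap. A near-identical gene, SLC2A14, and 3 pseudogenes held 8.64 to 22.3% of the TPM summed over SLC2A3 and these copies in this comparison, so its level is uncertain to that extent. SLC2A1 (GLUT1), the main glucose transporter of most proliferating cells, stood at 68.4 and 67.0 TPM in the control libraries and at 91.9 and 76.4 TPM under the knockout label, with a log2 fold change of 0.30 (0.19 after scaling), and was not called. SLC2A3 made up 4.61 and 5.07% of the TPM of both transporters in the controls and 8.39 and 8.20% in the libraries labelled U11 knockout.

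NDRG1, a stress-induced protein of differentiation and of cell migration, stood at 4.57 and 4.38 TPM in the control libraries and at 9.28 and 8.23 TPM under the knockout label. Both labelled libraries were above both controls, with a log2 fold change of 0.83 (standard error 0.12, limma adjusted P = 0.0319, 0.73 after scaling). HIF1A, the oxygen-labile subunit of hypoxia-inducible factor 1, stood at 93.5 and 100.8 TPM in the control libraries and at 163.3 and 152.2 TPM under the knockout label. The groups did not overlap, and the log2 fold change was 0.69 (standard error 0.09, limma adjusted P = 0.0243). After scaling it was 0.58 and fell just short of the fold threshold, so the call depended on the scaling. These values are of the message, whereas the subunit is mainly controlled as a protein, which was not measured.

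**Figure D1:**
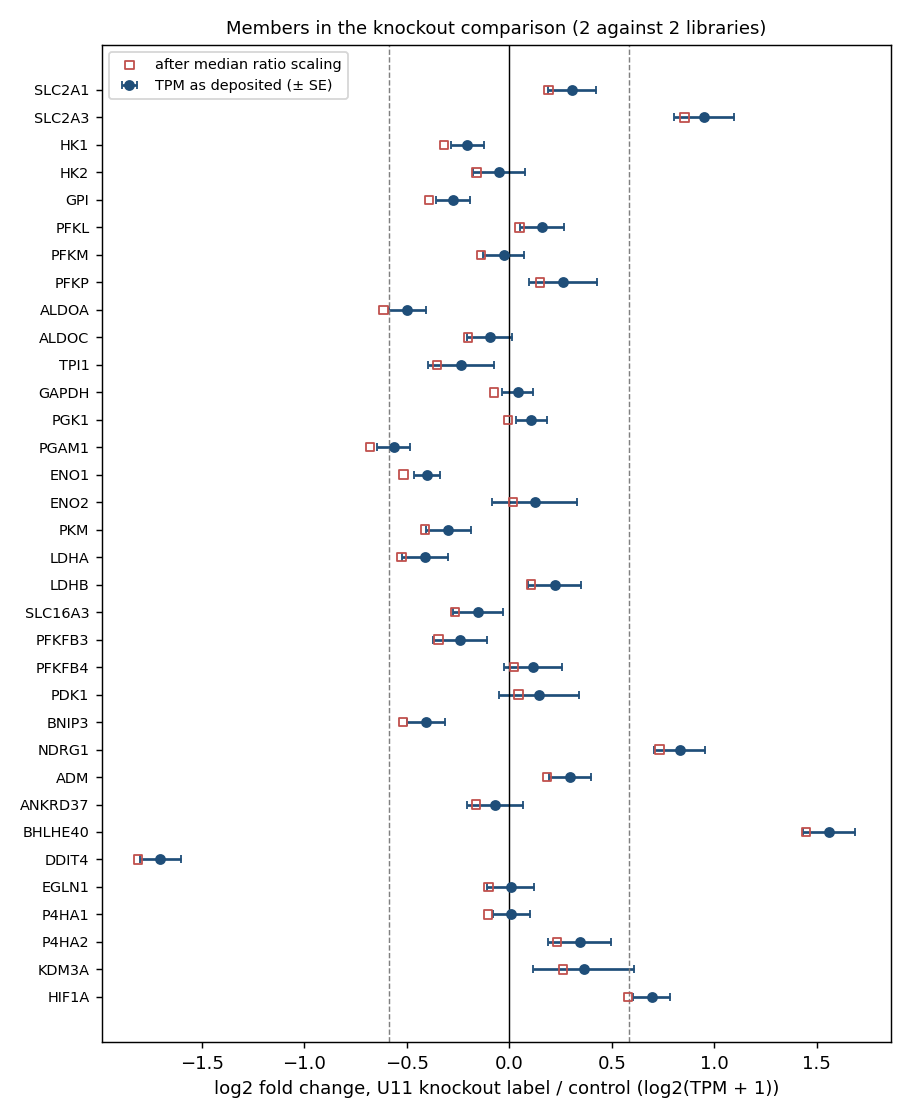
Log2 fold change of the 34 genes tested in the knockout comparison on the log2(TPM + 1) scale, from TPM as deposited (filled points, bars are standard errors of the limma fit) and after median ratio scaling (open squares), with dashed lines at a 1.5-fold change and genes in order of role. BHLHE40 at 1.56 and DDIT4 at -1.70 stand farthest from 0, and the 17 glycolytic enzymes lie between -0.56 and 0.26.

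Among the 17 enzymes from hexokinase to lactate dehydrogenase, 0 were called, with 6 higher and 11 lower and a median log2 fold change of -0.10. Among the abundant ones, PGAM1, ALDOA and ENO1 had an adjusted P under 0.05 but missed the fold threshold. PGAM1, a phosphoglycerate mutase, stood at 382.3 and 355.3 TPM in the control libraries and at 255.5 and 242.5 TPM under the knockout label (log2 fold change -0.56, limma adjusted P = 0.0293). ALDOA, the main aldolase, stood at 678.5 and 778.1 TPM against 512.4 and 516.2 TPM (log2 fold change -0.50, limma adjusted P = 0.0448). ENO1, the main enolase, stood at 2268 and 2158 TPM against 1691 and 1657 TPM (log2 fold change -0.40, limma adjusted P = 0.0346). In each of these genes both labelled libraries were below both controls. With scaling the log2 fold changes were -0.68, -0.61 and -0.52, so that PGAM1 and ALDOA passed both thresholds and 3 genes were called up and 3 down, against a scaled background of 5.64% up-regulated and 4.71% down-regulated.

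The other well-known enzymes were not called. GAPDH, which makes 1,3-bisphosphoglycerate and NADH, stood at 5118 and 4583 TPM in the control libraries and at 5057 and 4911 TPM under the knockout label, and the groups overlapped (log2 fold change 0.04). PGK1, the first ATP-forming enzyme of the route, stood at 231.4 and 223.8 TPM against 252.8 and 238.1 TPM (log2 fold change 0.11). HK2, the inducible hexokinase, stood at 18.7 and 19.0 TPM against 19.9 and 16.6 TPM and overlapped. LDHA, the lactate dehydrogenase subunit that hypoxia induces, stood at 1321 and 1084 TPM against 926.4 and 873.7 TPM, below both controls but not called (log2 fold change -0.41, limma adjusted P = 0.0939). LDHB, the subunit of more oxidative tissues, stood at 659.7 and 518.4 TPM against 683.5 and 681.0 TPM. As a result LDHB made up 33.3 and 32.3% of lactate dehydrogenase TPM in the controls and 42.5 and 43.8% under the knockout label, without overlap. GAPDH made up 37.2% of the TPM of the 17 enzymes in the controls and 42.6% in the libraries labelled U11 knockout (means, n = 2 each).

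Of the remaining genes, the lactate exporter SLC16A3 (MCT4) stood at 146.2 and 161.1 TPM in the control libraries and at 125.5 and 151.8 TPM under the knockout label, which overlapped. The kinases PFKFB3 and PFKFB4, which set the level of the phosphofructokinase activator fructose 2,6-bisphosphate, and PDK1, which blocks pyruvate entry, had log2 fold changes of -0.24, 0.11 and 0.15 and were not called. BNIP3, a mitophagy receptor, had 46.1 and 48.8 TPM in the controls and 35.9 and 35.1 TPM under the knockout label (log2 fold change -0.41, not called), and its 39 listed copies held up to 27.2% of their joint TPM in this comparison. CA9, the membrane carbonic anhydrase widely used as a marker of hypoxia, was at 0.04 and 0.28 TPM in the control libraries and at 0.49 and 0.78 TPM under the knockout label. CA12, another carbonic anhydrase of the membrane, was at 0.27 and 0.23 TPM against 0.55 and 0.65 TPM. EGLN3 (PHD3), a prolyl hydroxylase that hypoxia-inducible factor induces in many cells, was at most 0.22 TPM in these 4 libraries. The main sensor EGLN1 (PHD2) had a log2 fold change of 0.01, and the collagen prolyl hydroxylases P4HA1 and P4HA2 and the histone demethylase KDM3A had 0.01, 0.34 and 0.36 with no call. Over all 29 genes tested but not called, log2 fold changes lay between -0.56 and 0.36. In 10 of the 34 genes both labelled libraries were above both controls and in 11 below, whereas among all genes tested the libraries were above for 39.9% and below for 20.4%, together 60.2%.

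Mitochondrially encoded genes summed to 5408 and 6193 TPM in the controls and to 8763 and 6907 TPM under the knockout label, and the median ratio size factor was 0.93 and 0.99 against 1.09 and 1.00. Some cell type genes moved as well. Of 7 urothelial and epithelial genes tested, 2 were up-regulated and 1 was down-regulated, beside the background of 8.61% and 3.15%, while KRT7, KRT8, KRT18 and PPARG were not called. VIM, an intermediate filament of mesenchymal cells, rose (log2 fold change 0.76), as did GATA3, a urothelial regulator (0.75, limma adjusted P = 0.0553), whereas KRT19 fell (-0.75). CDH5 stood at 4.85 and 4.75 TPM in the controls against 0.03 TPM in both libraries labelled U11 knockout. It passed the filter only through the controls, where it was high, so its values are given as a description. The part of these in the changes above was not tested.

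The promoters of the called genes are shown because hypoxia-inducible factor binds a core of 5 letters, ACGTG or GCGTG. The windows hold the 250 bases before the RefSeq start of transcription on GRCh38.p14, read 5′ to 3′ on the strand of the gene, and capitals mark ACGTG or GCGTG on either strand, the reverse reading as CACGT or CACGC. An E-box, CACGTG, holds the core on both strands and is the site of many basic helix-loop-helix factors. DDIT4 lies on chromosome 10 (72273920 to 72276036, plus strand, hg38, as in the deposited tables) and its window is chr10:72273674-72273923. BHLHE40 lies on chromosome 3 (4979116 to 4985323, plus strand), with the window chr3:4979187-4979436, which lies wholly within the deposited gene span. HIF1A lies on chromosome 14 (61695513 to 61748259, plus strand), with the window chr14:61695263-61695512 for its upstream start.
DDIT4: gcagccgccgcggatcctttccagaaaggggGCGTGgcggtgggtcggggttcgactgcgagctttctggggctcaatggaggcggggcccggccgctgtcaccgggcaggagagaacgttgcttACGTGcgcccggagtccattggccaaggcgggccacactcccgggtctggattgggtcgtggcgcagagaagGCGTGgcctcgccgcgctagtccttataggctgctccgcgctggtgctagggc
BHLHE40: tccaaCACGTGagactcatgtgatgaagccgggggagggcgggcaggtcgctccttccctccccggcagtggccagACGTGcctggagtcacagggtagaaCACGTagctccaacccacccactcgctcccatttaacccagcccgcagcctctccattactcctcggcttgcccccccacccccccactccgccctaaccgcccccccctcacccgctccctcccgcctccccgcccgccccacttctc
HIF1A: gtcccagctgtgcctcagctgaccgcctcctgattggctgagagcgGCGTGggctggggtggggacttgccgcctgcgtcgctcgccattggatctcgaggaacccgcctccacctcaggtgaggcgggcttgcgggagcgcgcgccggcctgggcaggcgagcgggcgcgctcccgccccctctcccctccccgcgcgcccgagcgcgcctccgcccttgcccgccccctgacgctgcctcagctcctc

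The DDIT4 window held 3 cores and the BHLHE40 window 4, of which 2 belong to 1 E-box, and the HIF1A window held 1. A further RefSeq window of HIF1A, chr14:61697462-61697711 for a start farther downstream, held 0. The gene with the largest fall and the gene with the largest rise thus both held several cores. Several cores were not particular to called genes, since the windows of BNIP3 and PGK1, neither of them called, held 6 and 3. Those of SLC2A1 and PGAM1, also not called, held 0. RefSeq windows were found for 35 of the 37 genes, and SLC2A3 and NDRG1 are named only. A core was present in 29 of the 35 genes (82.9%) and in 47.4% of all 27305 genes with a window, counting any window of a gene. By single windows the shares were 60.3% of 63 and 43.2% of 35116. The E-box was present in 9 of the 35 genes (25.7%) and in 7.73% of all genes. The 37 genes were picked as genes of glycolysis or the hypoxia response, so their shares were not independent of that choice. Such a match is a description of letters, and binding was not measured.

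Genes of the surrounding pathways were examined in 8 further lists with 108 genes, of which 88 were tested in the knockout comparison. Of these, 5 were up-regulated and 1 was down-regulated, beside the background of 8.61% and 3.15%. The number called was 13 without the control T2, 11 without the library U2 and 11 with a pseudocount of 0.1, and 5 where every library had to reach 1 TPM. IGFBP3, a secreted binder of insulin-like growth factors, rose from 7.86 and 8.94 TPM to 29.9 and 27.9 TPM (log2 fold change 1.67, limma adjusted P = 0.00853). ANGPTL4, a secreted inhibitor of lipoprotein lipase induced by hypoxia and fasting, stood at 0.68 and 0.64 TPM against 4.04 and 4.32 TPM. In both genes the groups were far apart, but ANGPTL4 reached the minimum of 1 TPM only in the libraries labelled U11 knockout, so it entered the test through the group where it was high and its call is given as a description.

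HMOX1, the heme oxygenase, rose by a log2 fold change of 0.60 (0.49 after scaling, no longer called), and PGF, a growth factor of the VEGF family, fell from 13.0 and 11.7 TPM to 8.27 and 7.45 TPM (log2 fold change -0.59, limma adjusted P = 0.0572). These 4 belong to the list of other targets of hypoxia-inducible factor, of which 30 were tested, with a median of 0.21. TXNIP, which restrains glucose uptake and is induced by glucose, rose from 55.0 and 51.2 TPM to 109.3 and 98.7 TPM (log2 fold change 0.96, limma adjusted P = 0.018). RPE, an epimerase of the pentose phosphate pathway, rose from 15.5 and 17.5 TPM to 34.4 and 32.9 TPM (log2 fold change 0.99, limma adjusted P = 0.0202), and it was the only one of 8 genes of that pathway that was called. In the machinery of hypoxia-inducible factor 0 of 13 genes tested were called, among them EPAS1 (HIF-2 alpha, log2 fold change 0.01), ARNT (0.19) and VHL, the ubiquitin ligase subunit that removes the alpha subunits (-0.15). VEGFA, the vascular growth factor, stood at 8.86 and 9.81 TPM against 14.0 and 10.6 TPM (log2 fold change 0.35, not called).

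In the overexpression comparison of all 6 libraries with the 2 controls, only BHLHE40 was called among the 37 genes, as up-regulated, and none as down-regulated. Here 35 genes passed the filter, and the background was 0.767% up-regulated and 1.16% down-regulated among 15768 genes. CA12 passed it only through the libraries 86-1 and 79-1, at 1.22 and 1.00 TPM against 0.75 and 0.60 TPM in the controls. BHLHE40 stood at 24.2 and 22.8 TPM for the controls, and the overexpression libraries had a lowest value of 31.7, a median of 32.4 and a highest of 53.8 TPM. All 6 were above both controls, with a log2 fold change of 0.66 (standard error 0.23, limma adjusted P = 0.654). Within the library series R17018 and R18019 the difference of the 3 overexpression libraries from the control of the same series was 0.63 and 0.69. None of the 35 had an adjusted P under 0.05 in limma, where the background with the fold threshold was 0.165%. The call of BHLHE40 was lost when either control or either library of line label 79 was left out, with 0 genes called in each case.

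The median log2 fold change of the 35 genes was 0.06, against -0.02 for all genes tested, with 25 higher and 10 lower. The values that were not called lay between -0.36 for ADM, a vasodilator peptide induced by hypoxia, and 0.61 for NDRG1. HIF1A stood at 175.0 and 153.3 TPM for the controls and between 165.0 and 187.0 TPM in the overexpression libraries, and overlapped. SLC2A1 stood at 166.7 and 147.3 TPM against 143.2 to 166.7 TPM and GAPDH at 11051 and 10439 TPM against 9884 to 12689 TPM, both with overlap. PGK1 (504.2 and 510.2 TPM against 470.8 to 554.6 TPM) and LDHA (2334 and 2608 TPM against 2049 to 2894 TPM) overlapped as well. CA9 was at 0 in both controls and at most 0.68 TPM elsewhere. The groups were apart for 5 of the 35 genes, 3 above and 2 below, and for 9.87% of all genes tested, 4.62% above and 5.24% below.

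The pooled comparison combined line labels that differed from each other. In a fit of the 3 line labels and the controls, 11 of the 35 genes differed between the line labels (moderated F test in limma, adjusted P under 0.05), where the background was 16% of all genes tested. Of the 11, 7 had their highest mean under line label 79 (HK2, GPI, ALDOC, SLC16A3, PFKFB4, NDRG1 and BHLHE40), 2 under 86 (SLC2A3 and DDIT4) and 2 under 87 (HK1 and PFKP). The count of 11 fell with any 1 library left out, of the controls or of any line label, which leaves a single library in that group. With the library series as a replicate block in the fit it was 15, beside 19.5% of all genes tested. Of the 11, 10 were then called again, GPI was not (adjusted P of the F test 0.0663), and GAPDH, PGK1, PGAM1, ADM and P4HA2 were called in addition. Over the 15 alternatives run, ALDOC, NDRG1, BHLHE40 and DDIT4 passed the F test in each, whereas HK1 missed its threshold in 1 and SLC16A3 and PFKFB4 in 2. SLC2A3 missed it in 8, HK2 in 9, GPI in 9 and PFKP in 7, mostly with a library left out. The largest log2 difference between line labels kept its sign in these 4 genes, between -0.56 and -0.38 for SLC2A3, 0.31 and 0.37 for HK2, 0.51 and 0.75 for GPI, and -0.75 and -0.44 for PFKP. The comparisons of each line label with the controls share the same 2 control libraries, so their values are set side by side.

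Line label 79 had 5 of the 35 genes up-regulated against the controls (ALDOC, SLC16A3, NDRG1, BHLHE40 and DDIT4) and 0 down-regulated, beside a background of 2.43% up-regulated and 5.52% down-regulated. All 5 had an adjusted P under 0.05 in limma, beside a background of 5.63% in either direction. Line label 86 had 1 up-regulated, DDIT4, and 0 down-regulated, beside 1.59% and 2.01%, and DDIT4 also had an adjusted P under 0.05, beside 1.37%. Line label 87 had 0 up-regulated and 1 down-regulated, PKM, beside 2.08% and 3.05%, and 0 at an adjusted P under 0.05, beside 2.65%. The medians of the 35 genes were 0.13, 0.04 and 0.02 for 79, 86 and 87, against -0.03, 0.01 and -0.01 for all genes tested. Values that were not called lay between -0.58 and 0.46 under 79, between -0.56 and 0.44 under 86 and between -0.34 and 0.44 under 87.

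**Figure D2:**
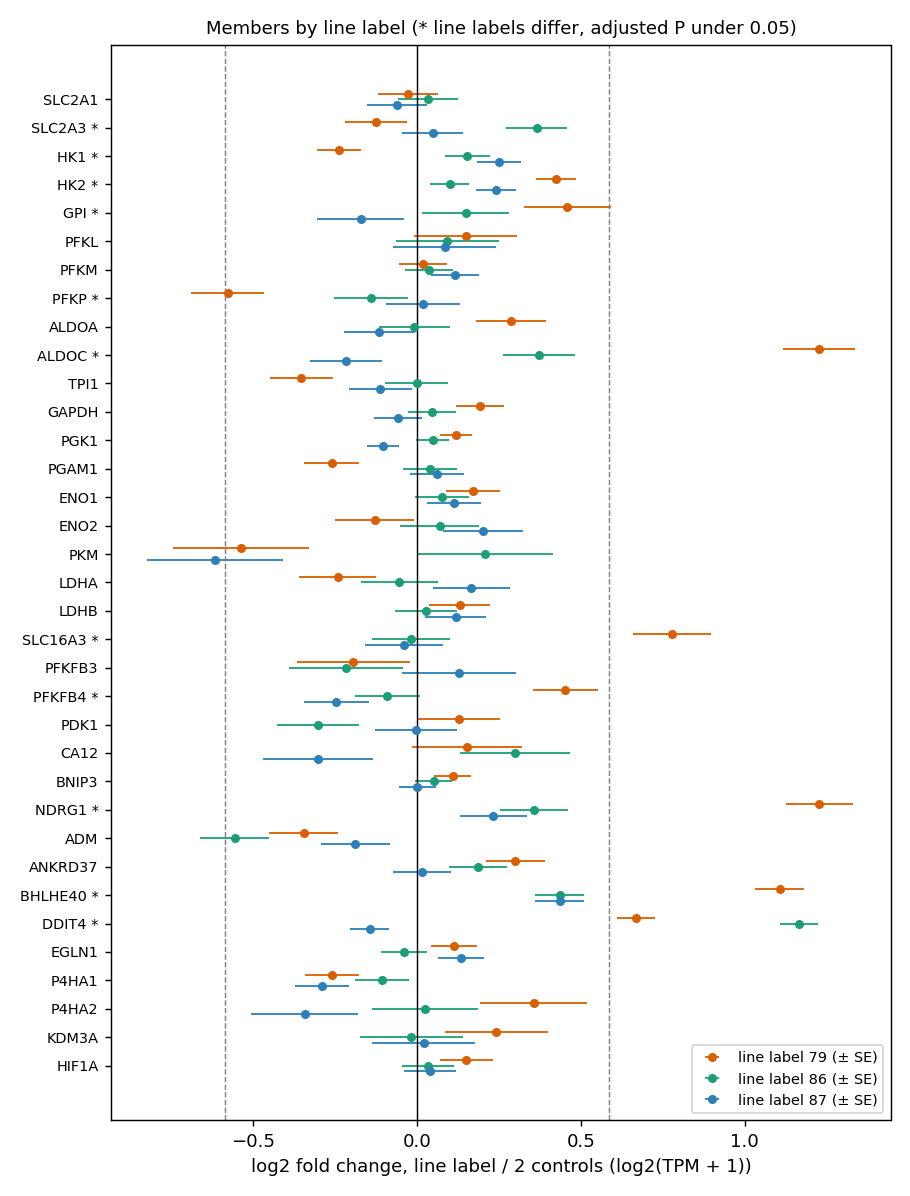
Log2 fold change of the 35 genes tested under line labels 79, 86 and 87 against the same 2 control libraries on the log2(TPM + 1) scale, with standard errors of the 4-group limma fit as bars, dashed lines at a 1.5-fold change and an asterisk where the line labels differed. Line label 79 stands apart to the right in ALDOC (1.23), NDRG1 (1.23), BHLHE40 (1.11) and SLC16A3 (0.78), and line label 86 in DDIT4 (1.17).

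The targets NDRG1 and BHLHE40, the enzyme ALDOC and the exporter SLC16A3 were highest under line label 79. NDRG1 stood at 8.53 and 7.36 TPM in the controls, at 19.5 and 20.3 TPM under 79, at 9.93 and 10.9 TPM under 86 and at 9.80 and 9.19 TPM under 87. Line label 79 was apart from all other libraries (log2 fold change against controls 1.23, standard error 0.10, limma adjusted P = 0.00154), and the others lay between 7.36 and 10.9 TPM. BHLHE40 stood at 53.8 and 49.7 TPM under 79, at 31.7 and 32.6 TPM under 86 and at 32.3 and 31.9 TPM under 87, all above the 22.8 and 24.2 TPM of the controls. The log2 fold changes were 1.11, 0.44 and 0.44 (standard error 0.07 each, limma adjusted P = 0.000689, 0.0473 and 0.0347), and the latter pair was under the fold threshold and did not differ from each other beyond the spread (difference 0.00, standard error 0.07).

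ALDOC, the aldolase of brain and a target of hypoxia-inducible factor, stood at 15.1 and 14.2 TPM in the controls, at 39.1 and 32.6 TPM under 79, at 18.4 and 20.2 TPM under 86 and at 12.1 and 12.8 TPM under 87. The 4 groups did not overlap, in the order 79, 86, controls, 87, and the log2 fold changes against the controls were 1.23 (standard error 0.11, limma adjusted P = 0.0019), 0.37 and -0.22, the latter 2 not called. A gene on the same strand that overlaps it, RP11-192H23.4, reached up to 17.6% of its TPM. SLC16A3, which exports lactate, stood at 395.2 and 430.7 TPM in the controls, at 744.4 and 673.6 TPM under 79, at 436.2 and 381.2 TPM under 86 and at 442.1 and 363.9 TPM under 87. Line label 79 was above every other library and the rest overlapped (log2 fold change 0.78, standard error 0.12, limma adjusted P = 0.0121). CSNK1D overlaps SLC16A3 on the opposite strand at up to 38.4% of its TPM, and the strand setting of the abundance estimate is not given in the sources used here.

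DDIT4 had another order. It stood at 180.4 and 179.3 TPM in the controls, at 289.9 and 283.0 TPM under 79, at 411.0 and 398.3 TPM under 86 and at 167.7 and 157.7 TPM under 87. Replicates were close and the 4 groups did not overlap, with log2 fold changes of 0.67, 1.17 and -0.14 (standard error 0.06 each, limma adjusted P = 0.00183, 0.00138 and 0.273). The difference between 86 and 87 was 1.31 (standard error 0.06, limma adjusted P = 0.000293), the largest between any line labels for DDIT4. DDIT4 was highest under 86 and the other 4 genes under 79, so the line labels were not ranked alike by these 5 genes. Within the library series R17018 and R18019, the log2 differences of line label 79 from the control of the same series were 1.32 and 1.14 for ALDOC, 1.11 and 1.35 for NDRG1, 1.12 and 1.09 for BHLHE40 and 0.91 and 0.64 for SLC16A3, and those of line label 86 were 1.18 and 1.15 for DDIT4.

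**Figure D3:**
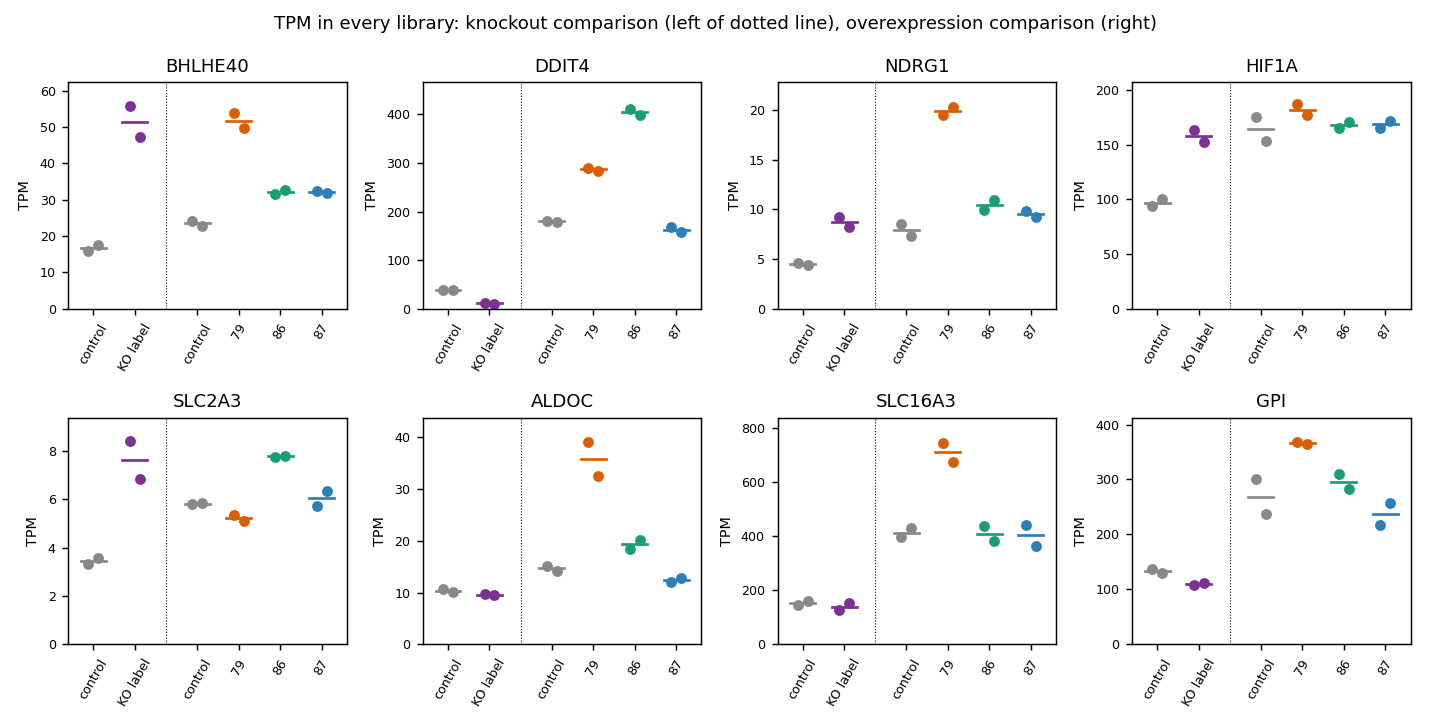
TPM of 8 genes in each of the 12 libraries, each panel starting at 0, with the knockout comparison left of the dotted line and the overexpression comparison right of it, points for libraries and short lines for means of 2. The 2 libraries of line label 79 are the highest of the overexpression comparison in BHLHE40, NDRG1, ALDOC, SLC16A3 and GPI, those of 86 in DDIT4 and SLC2A3, and the levels left and right of the dotted line are not comparable.

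The window before the RefSeq start of ALDOC, a minus-strand gene on chromosome 17 (28573115 to 28577264, hg38), is shown because ALDOC had the largest difference between line labels of the 11 genes. It is chr17:28576896-28577145 on GRCh38.p14 (RefSeq), which lies within the deposited gene span, and is written on the strand of the gene, with the same letters in capitals.
ALDOC: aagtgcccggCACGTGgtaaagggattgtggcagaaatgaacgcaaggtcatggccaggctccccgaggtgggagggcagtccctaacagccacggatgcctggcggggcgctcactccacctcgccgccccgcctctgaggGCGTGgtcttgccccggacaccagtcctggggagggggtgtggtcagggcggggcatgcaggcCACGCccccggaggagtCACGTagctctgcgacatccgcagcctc
The window held 5 cores, of which 2 belong to 1 E-box, more than the BHLHE40 window.

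The enzymes GPI, PFKFB4 and PFKP also differed between line labels. GPI, the isomerase after hexokinase, stood at 300.6 and 236.8 TPM in the controls, at 368.8 and 365.3 TPM under 79, at 309.4 and 283.1 TPM under 86 and at 217.4 and 257.7 TPM under 87. Line label 79 was above all other libraries, and 79 and 87 differed by 0.63 on the log2 scale (standard error 0.13, limma adjusted P = 0.0313), while none of the line labels was called against the controls, which were themselves spread. The F test of GPI had an adjusted P of 0.0485 in limma, and between 0.0321 and 0.304 over the alternatives. PFKFB4 stood at 8.67 and 7.53 TPM in the controls, at 11.5 and 11.4 TPM under 79, at 7.70 and 7.37 TPM under 86 and at 6.87 and 6.46 TPM under 87, with a difference of 0.70 between 79 and 87 (standard error 0.10, limma adjusted P = 0.00788). UCN2, on the same strand, overlaps PFKFB4 and reached up to 74.1% of its TPM. PFKP, the platelet-type phosphofructokinase, was lowest under 79, at 258.9 and 261.6 TPM against 375.8 and 402.9 TPM in the controls, 371.9 and 335.2 TPM under 86 and 439.9 and 353.5 TPM under 87. Its log2 fold change of -0.58 under 79 (standard error 0.11, limma adjusted P = 0.0266) was just under the fold threshold.

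Under line label 79 the hexokinases lay on opposite sides of the controls. HK1, the hexokinase of most tissues, stood at 231.1 and 219.5 TPM in the controls, at 195.8 and 186.1 TPM under 79, at 260.6 and 241.1 TPM under 86 and at 272.1 and 263.9 TPM under 87. HK2 stood at 57.4 and 55.3 TPM in the controls, at 76.3 and 75.6 TPM under 79, at 61.2 and 59.7 TPM under 86 and at 67.0 and 66.7 TPM under 87. HK1 was thus lowest and HK2 highest under 79, with log2 fold changes against the controls of -0.24 and 0.42 (limma adjusted P = 0.084 and 0.00953), both below the fold threshold. Under 86 and 87 both genes stood above the controls, by 0.15 and 0.25 for HK1 and by 0.10 and 0.24 for HK2 on the log2 scale. HK2 made up 28.0 and 28.9% of the TPM of both hexokinases under 79, against 19.9 and 20.1% in the controls and 19.0 to 20.2% under the other line labels. SLC2A3 stood at 5.79 and 5.83 TPM in the controls, at 5.37 and 5.12 TPM under 79, at 7.74 and 7.80 TPM under 86 and at 5.74 and 6.35 TPM under 87, so that only 86 lay above the rest (log2 fold change 0.37, limma adjusted P = 0.153, not called).

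PKM, the pyruvate kinase, was the 1 gene called under line label 87. Its level was 3397 and 3321 TPM in the controls, at 1881 and 2848 TPM under 79, at 4458 and 3379 TPM under 86 and at 2285 and 2100 TPM under 87. The 87 libraries were below both controls, the 79 libraries lay far from each other, and the log2 fold change under 87 was -0.62 (standard error 0.21, limma adjusted P = 0.189). The call was lost when either control or either 87 library was left out. The difference between line labels was not called for PKM by the F test (adjusted P = 0.0649).

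**Figure D4:**
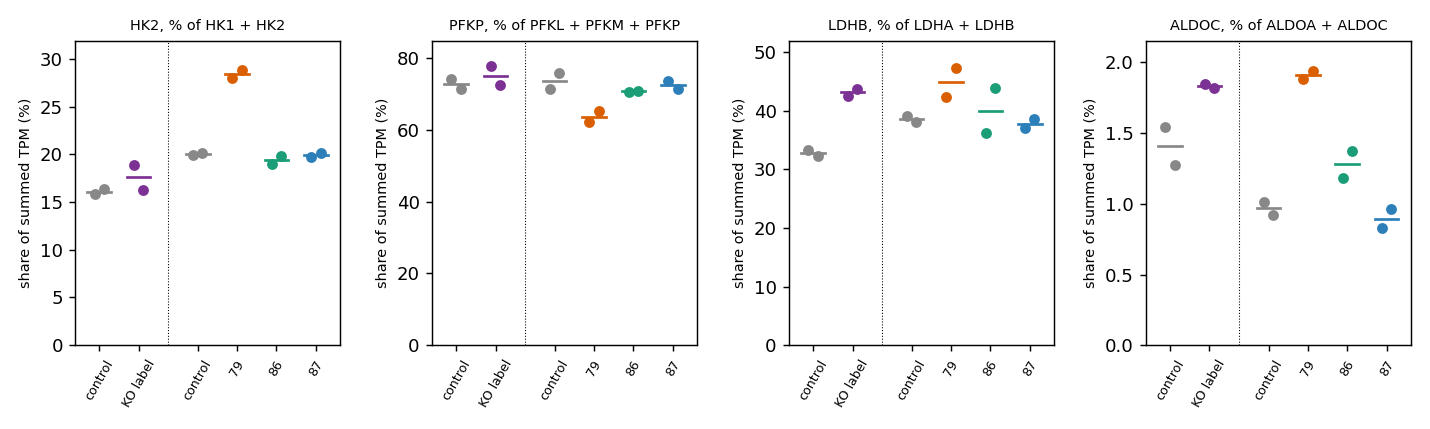
Share of each isoenzyme in the summed TPM of its family, in percent, for each of the 12 libraries, with axes from 0, points for libraries, short lines for means of 2 and the knockout comparison left of the dotted line. HK2 is at 28.0 and 28.9% under line label 79 and LDHB at 42.5 and 43.8% in the libraries labelled U11 knockout.

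Further isoenzyme shares under line label 79 were set against the controls. PFKP made up 62.1 and 65.4% of phosphofructokinase TPM there, against 71.6 and 75.8% in the controls. LDHB made up 42.4 and 47.4% of lactate dehydrogenase TPM under 79 and 39.1 and 38.2% in the controls, but 43.9% in 1 library of line label 86, so the groups overlapped. ALDOC reached 1.88 and 1.94% of aldolase TPM under 79, against 1.01 and 0.92% in the controls, and ALDOA held nearly all the rest in every library. No test was run on these shares.

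Of the 108 genes in the surrounding pathways, 90 were tested in the overexpression comparison, where 1 was up-regulated (HMOX1) and 3 were down-regulated (ADPGK, ARRDC4 and ARNT2), beside 0.767% and 1.16%, with none at an adjusted P under 0.05. ADPGK, a hexokinase that uses ADP, stood at 90.7 and 66.2 TPM for the controls and between 39.6 and 54.6 TPM in the overexpression libraries (log2 fold change -0.71). ARRDC4, an arrestin related to TXNIP that also restrains glucose uptake, stood at 6.56 and 5.94 TPM in the control libraries and at 2.79 and 3.31 TPM under 79, 3.20 and 3.57 TPM under 86 and 2.499 and 2.53 TPM under 87. It was down-regulated under each line label, with log2 fold changes of -0.84, -0.73 and -1.04 (limma adjusted P = 0.00928, 0.0424 and 0.00877). ARNT2, a neural relative of ARNT, stood at 2.59 and 1.55 TPM in the control libraries and at most at 0.96 TPM in the overexpression libraries, so that it passed the filter only through the controls, where it was high, and its call is a description. With 1 TPM required in every library 3 of the pathway genes were called. By line label, 79 had 6 up-regulated and 3 down-regulated among the 90, 86 had 1 and 3, and 87 had 0 and 5. The background was 2.43% up-regulated and 5.52% down-regulated for 79, 1.59% and 2.01% for 86, and 2.08% and 3.05% for 87. Without the control T24P3 only 2 of the 108 genes were called.

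Of the other targets of hypoxia-inducible factor, 32 were tested and 13 differed between line labels, beside 16% of all genes. Line label 79 had 5 of them up-regulated (ANGPTL4, AK4, HMOX1, PPFIA4 and PGF) and 0 down-regulated, 86 had 0 in either direction and 87 had 0 up and 2 down (TMEM45A and RAB20). Of the 5, PPFIA4 passed the filter only through the libraries of line label 79, so its call supports nothing. The background for 79 was 2.43% up-regulated and that for 87 3.05% down-regulated. The medians were 0.23, 0.06 and -0.06 for 79, 86 and 87. ANGPTL4 stood at 1.41 and 1.11 TPM in the controls, at 4.47 and 4.70 TPM under 79, at 1.52 and 1.20 TPM under 86 and at 2.04 and 1.63 TPM under 87. Line label 79 was apart from the others (log2 fold change 1.31, limma adjusted P = 0.00448).

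HMOX1 was at 26.6 and 25.8 TPM in the control libraries and at 61.3 and 54.9 TPM under 79, 37.7 and 35.1 TPM under 86 and 31.8 and 32.3 TPM under 87, with log2 fold changes of 1.12, 0.46 and 0.28. AK4, a mitochondrial adenylate kinase, rose under 79 by 0.69 on the log2 scale, and PPFIA4, a liprin, was at 0.35 and 0.12 TPM in the controls, at 1.48 and 1.93 TPM under 79 and at most 0.38 TPM elsewhere. IGFBP3 was at 71.0 and 69.4 TPM in the controls, at 92.6 and 94.6 TPM under 79, at 48.4 and 47.3 TPM under 86 and at 55.3 and 60.8 TPM under 87, and differed between line labels (F test in limma, adjusted P = 0.00141). VEGFA stood at 28.0 and 26.0 TPM in the controls, at 27.3 and 28.5 TPM under 79, at 29.5 and 31.2 TPM under 86 and at 21.2 and 22.6 TPM under 87, lowest under 87. TXNIP was at 123.0 and 119.7 TPM in the controls, at 131.8 and 138.8 TPM under 79, at 79.4 and 75.8 TPM under 86 and at 86.8 and 89.9 TPM under 87, and was down-regulated under 86 (log2 fold change -0.64, limma adjusted P = 0.0085).

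**Figure D5:**
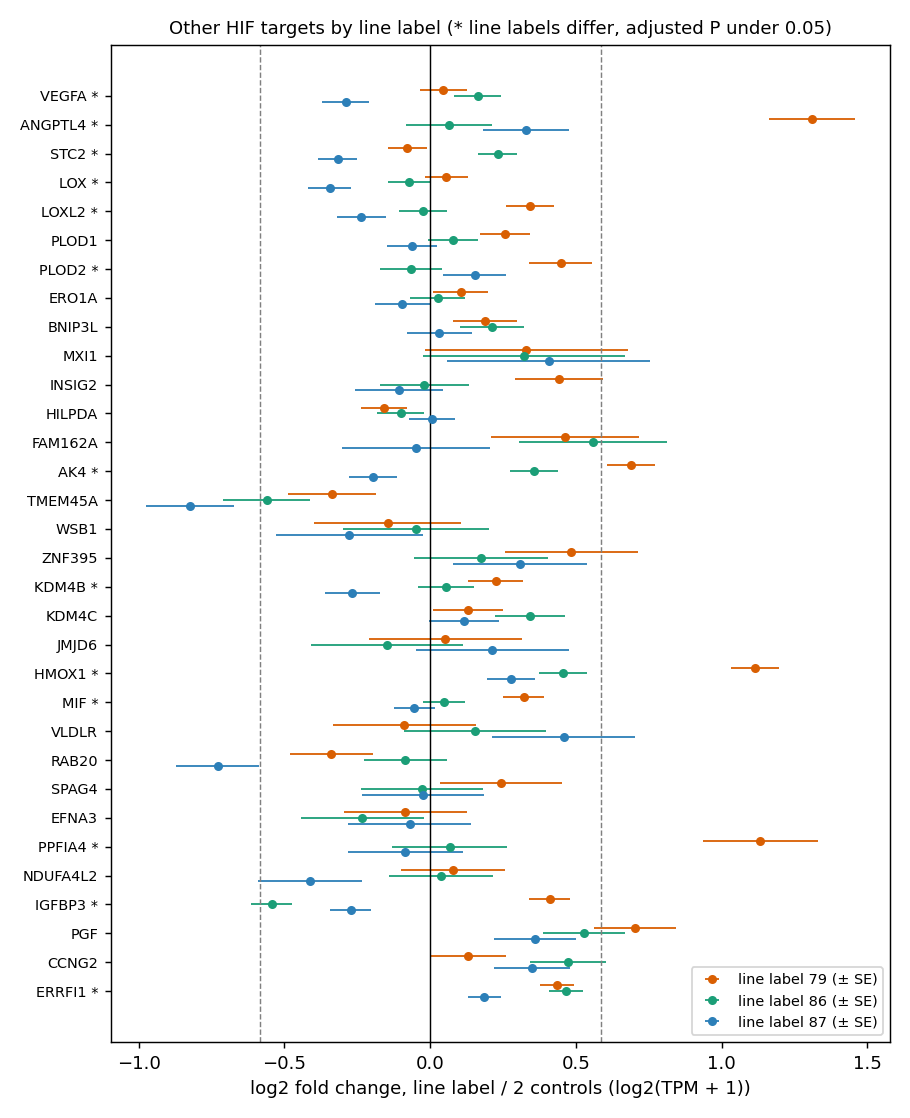
Log2 fold change of 32 other targets of hypoxia-inducible factor (HIF) under line labels 79, 86 and 87 against the same 2 control libraries on the log2(TPM + 1) scale, with standard errors as bars, dashed lines at a 1.5-fold change and an asterisk where the line labels differed. ANGPTL4 (1.31), PPFIA4 (1.13) and HMOX1 (1.12) stand farthest to the right, all under line label 79, and PPFIA4 reached 1 TPM only in the libraries of that label.

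EPAS1 differed between line labels (F test in limma, adjusted P = 0.00357), at 83.1 and 77.9 TPM in the controls, 98.6 and 95.8 TPM under 79, 68.0 and 62.5 TPM under 86 and 105.5 and 105.2 TPM under 87. It was the only one of 13 genes of the factor's machinery that did, while ARNT and VHL had adjusted P = 0.392 and 0.375. HIF1A had log2 fold changes of 0.15, 0.03 and 0.04 under 79, 86 and 87 (adjusted P of the F test 0.515). HIF1A was thus not called under any line label. CDH5 was higher under line label 79 while U11 there stayed within the range of the controls, as given above. Of 8 urothelial and epithelial genes tested, 3 differed between line labels (GATA3, KRT8 and KRT19), beside 16% of all genes. GATA3 stood at 17.4 and 13.6 TPM in the controls against 6.78 and 6.31 TPM under 87. Under 79, KRT19 was lower (208.4 and 192.7 TPM, controls 295.7 and 271.3 TPM). KRT8 was higher there (1458 and 1366 TPM, controls 1128 and 1080 TPM). The part of these genes and of U11 in the differences between line labels was not tested.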

How the data were processed

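Total RNA of T24 cells was sequenced in 12 libraries. Per the methods of the study, ribosomal RNA was depleted, whereas the labels give polyA RNA. The authors cleaned reads with fastp, aligned them to hg38 with Hisat2 and estimated abundance with Stringtie, and versions, annotation and strand setting are not given in the sources used here. The deposited tables hold 1 library each, with coverage (mean aligned bases per position), FPKM and TPM per gene, and the TPM deposited was the unit analysed. Since no read counts were used, the count test of the study was not run.

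Genes with at least 1 TPM in 2 of the libraries compared were fitted with limma 3.58.1 (trend) on log2(TPM + 1) in R 4.3.3, within each comparison, and in 1 fit with 4 groups for line labels. P values were adjusted over all genes tested. The fits were tested on simulated data. The genes and lists were chosen with earlier results of these data known. Genes called in a comparison, or differing between line labels, were named with their library values, as were 7 best known genes (by range over the 6 overexpression libraries), and up to 5 called genes in each direction from the other lists. Alternatives were a pseudocount of 0.1, FPKM, median ratio scaling, other filters, no trend, a replicate block, means of line labels, adjusted P and each library left out. Replicate numbers were not taken as pairs, and the block was the library series in the overexpression comparison. Precision rests on 2 libraries a group, and depth is known only as aligned gigabases.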

Additional observations from a re-analysis of the deposited data

Results flagged for a closer look

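For 11 of the 35 genes tested, the level differed between the line labels in the F test over 79, 86 and 87. The background was 16% of all genes tested. The largest log2 difference between any pair of line labels was 1.45 for ALDOC, 0.99 for NDRG1, 0.82 for SLC16A3, 0.70 for PFKFB4, 0.67 for BHLHE40 and 0.63 for GPI, each as 79 minus 87. It was -0.60 for PFKP and -0.49 for HK1, also as 79 minus 87. It was 0.32 for HK2 and -0.49 for SLC2A3 as 79 minus 86, and 1.31 for DDIT4 as 86 minus 87. The differences of SLC2A3, HK2, GPI and PFKP kept their sign but missed the threshold of the F test in 7 to 9 of 15 alternatives, GPI also with the library series as a block. Each line label had 2 libraries, so the spread within a line label rests on 1 difference per gene and on the estimate shared over all genes.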

How the results depend on the processing

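Under every alternative run, BHLHE40, SLC2A3, NDRG1 and DDIT4 kept their calls at an unadjusted P in the knockout comparison, as did all 5 genes called under line label 79 and DDIT4 under 86, and no called gene changed sign. The median log2 fold change of the 34 genes in the knockout comparison, 0.01, was -0.09 with FPKM, -0.10 with median ratio scaling, -0.01 without T1, 0.02 without T2, -0.07 without U1 and 0.07 without U2. HIF1A lost its call in the knockout comparison with median ratio scaling (0.58). The number of genes down-regulated there was 3 instead of 1 with FPKM and with median ratio scaling. Of all genes tested, 3.15% were down-regulated with TPM as deposited and 4.71% after median ratio scaling. Adjusted P left 0 genes in the overexpression comparison, 0 under line label 87 and 0 of the other pathway genes in the overexpression comparison. Under 87 no filter also left 0. With single libraries left out, the number called was between 0 and 1 in the overexpression comparison, between 1 and 2 under 86, between 0 and 1 under 87, and between 6 and 8 for genes differing between line labels, where a lone library is assumed to vary like the other groups. The other pathway genes called in the knockout comparison numbered 11 with a pseudocount of 0.1 and between 6 and 13 with libraries left out (13 without the control T2 and 11 without U2), and in the overexpression comparison between 2 and 5. The replicate numbers or library series were not taken as pairs, since deviations from group means correlated at 0.02 in the knockout comparison and weakly, though always above 0, at 0.07 to 0.15 in the overexpression comparison. With a replicate block, 4 genes were up-regulated and 1 was down-regulated in the knockout comparison, where the share of all genes was not taken. With the library series as the block, 15 differed between line labels, beside 19.5% of all genes tested. GPI was no longer among the 15 (adjusted P of the F test 0.0663), and GAPDH, PGK1, PGAM1, ADM and P4HA2 were added. CA9, CA12 and EGLN3 were under the filter in the knockout comparison and were not tested there.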
